A study of Mus musculus with 2 samples.

Results

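The genes described here were 38 mouse nuclear receptor genes, among them Nr2f1, Nr2f2 and Nr2f6, which encode the COUP-TF receptors. Members were taken from a fixed list of symbols, and each distinct ATAC-seq peak whose assigned gene symbol was on that list was counted as a peak of that gene. Of 26232 distinct peaks, 73 belonged to the 38 genes. The genes were 38 of 21896 protein coding genes in the reference table, and 6 of them had no peak.

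ATAC-seq, in which the Tn5 transposase cuts and tags accessible DNA, was performed on cardiac progenitor cells (CPCs) that had been differentiated for 5 days, to map their open chromatin. The cells were derived from E14 Tg(Nkx2-5-EmGFP) embryonic stem cells, in which regulatory sequence of the cardiac gene Nkx2-5 drives a green fluorescent reporter, at passages 16 to 20, and the labels give the strain as C57BL/6. There was 1 group, for which the labels name neither a treatment nor a knockdown, with 2 replicates that came from independent differentiations per the study's methods, both of 1 cell line. Isl1 knockdown cells were not analysed here. A single list represented both replicates and held no score and no value per replicate, so depth was unknown, no value has a replicate error, and no comparison between conditions was possible. Widths follow the coordinates of 1 replicate and depend on the peak caller. A gene without a peak is a gene for which no peak was listed, which is not a measurement of closed chromatin.

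Nuclear receptors are transcription factors that bind DNA through zinc fingers, and many of them are switched by small lipophilic ligands such as steroids, thyroid hormone, vitamin D or fatty acids. Many recognise the half-site AGGTCA, alone or as a pair in which spacing and orientation select the receptor dimer, and the retinoid X receptors (RXR) are the shared partner in many such dimers. COUP-TF receptors are orphan members of the superfamily that bind direct repeats of this half-site, and Nr2f2 (COUP-TFII) is known for its role in atrial identity and in veins.

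**Figure D1:**
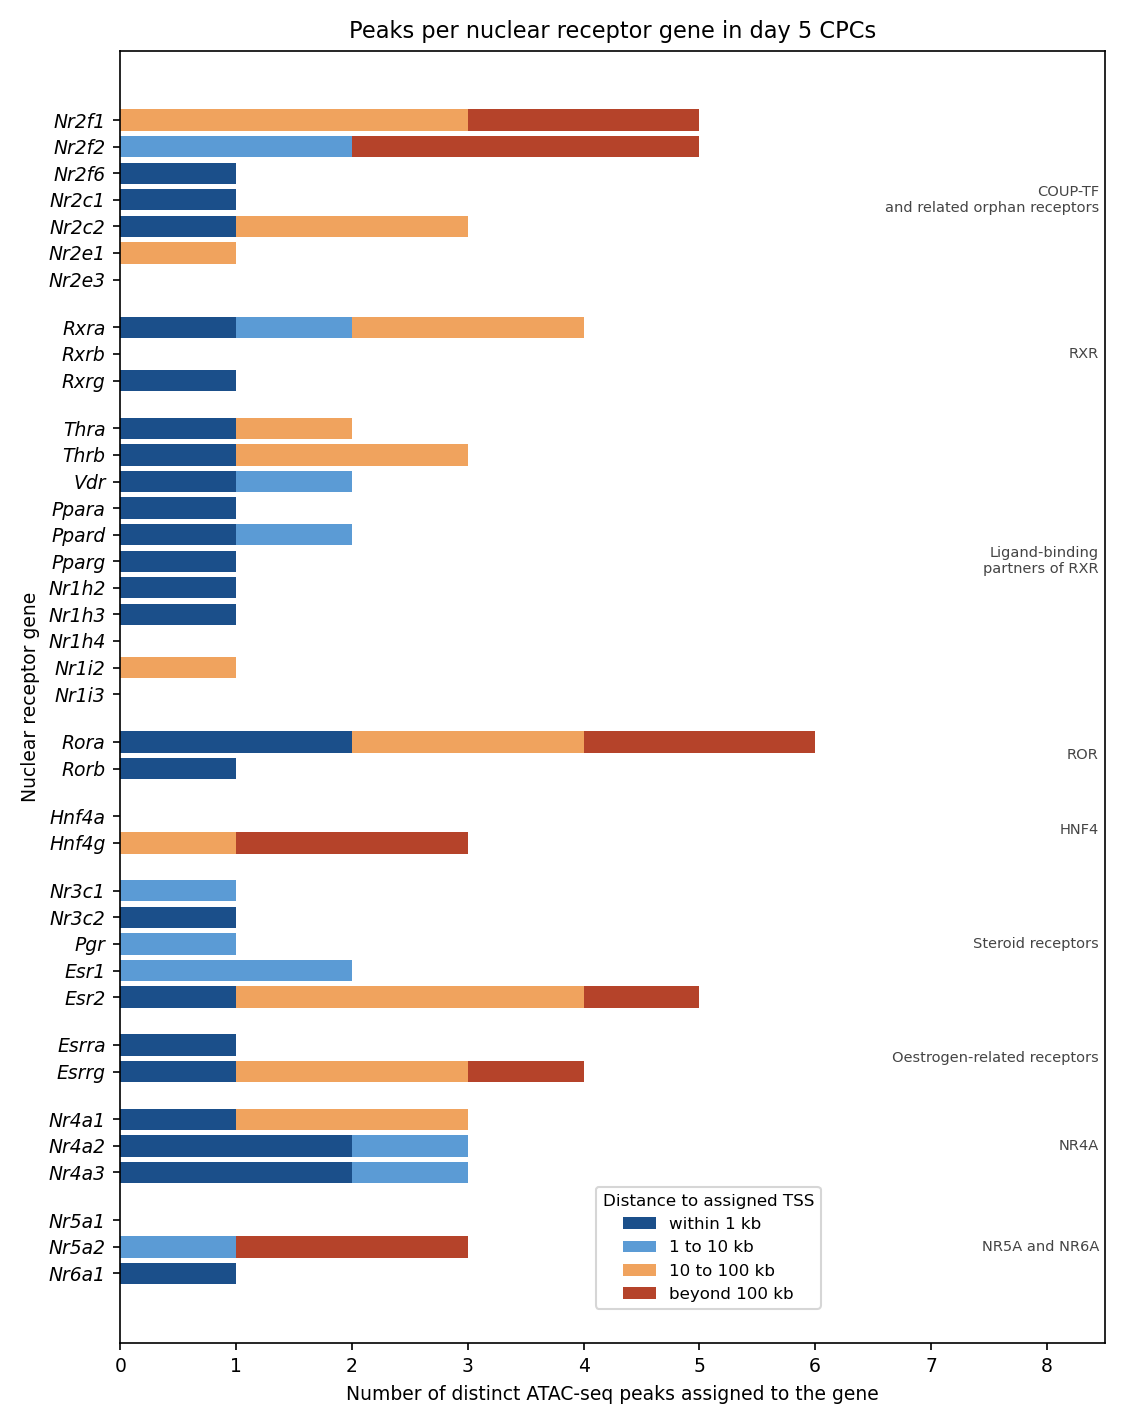
Number of distinct peaks assigned to each of the 38 nuclear receptor genes (horizontal axis, counts), grouped by receptor class and coloured by the distance of the peak midpoint from the assigned transcription start site (TSS). Rora carried 6 peaks, Nr2f1, Nr2f2 and Esr2 carried 5 each, and 6 genes had none.

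The sequences on which the description of the COUP-TF loci rests are the centres of the peaks nearest to the start sites of Nr2f1 and Nr2f2. Each is the 300 bases around the peak midpoint, read from the plus strand of mm9, and capitals mark AGGTCA or the homeodomain core TAATTG on either strand. The first lay at chr13:78349445-78349744, 11460 bp upstream of the assigned Nr2f1 TSS, and held 1 TAATTG and no AGGTCA.
Nr2f1: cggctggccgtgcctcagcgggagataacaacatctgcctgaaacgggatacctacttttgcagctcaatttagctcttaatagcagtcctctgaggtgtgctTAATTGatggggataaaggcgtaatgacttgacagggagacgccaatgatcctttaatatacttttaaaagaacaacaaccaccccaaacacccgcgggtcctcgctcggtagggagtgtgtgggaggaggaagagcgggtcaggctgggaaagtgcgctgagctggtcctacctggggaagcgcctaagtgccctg
The second lay at chr7:77506429-77506728, 1099 bp upstream of the assigned Nr2f2 TSS and inside an intron of the longer Nr2f2 transcript, and held neither motif.
Nr2f2: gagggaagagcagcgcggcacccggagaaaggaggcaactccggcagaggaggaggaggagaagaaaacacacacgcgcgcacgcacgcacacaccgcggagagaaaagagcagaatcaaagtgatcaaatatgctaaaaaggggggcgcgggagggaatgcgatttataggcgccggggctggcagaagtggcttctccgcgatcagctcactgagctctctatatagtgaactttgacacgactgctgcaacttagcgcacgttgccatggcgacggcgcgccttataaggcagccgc

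Among the COUP-TF genes, Nr2f1 and Nr2f2 each carried 5 peaks, at distances of 1099 to 480838 bp from the assigned TSS, while Nr2f6 carried 1 peak at its start site. Across all genes, 4.78% carried 4 or more peaks. Neither Nr2f1 nor Nr2f2 had a peak with its midpoint within 1 kb of the assigned TSS.

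Nr2f1 (chr13:78328234-78339018, minus strand), which encodes COUP-TFI, had peaks at -480838, -229034 and -11460 bp from the assigned TSS, negative being upstream. Its peaks at 16964 and 33104 bp were measured from a second start site. The widths of the 5 peaks in that order were 563, 992, 1642, 902 and 763 bp. The widest (chr13:78348774-78350415) was therefore also the nearest, and it lay in an intron of the annotated gene A830082K12Rik. The peak 33104 bp downstream was in an intron of Fam172a, and the other 3 were intergenic. No peak overlapped the gene body or the 500 bp on either side of any of its 4 annotated start sites, although the promoter was CpG-rich, with an observed over expected CpG ratio of 0.925. The gene lies in a stretch of 3170 kb between the start sites of the neighbouring coding genes Fam172a and Arrdc3.

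Nr2f2 (chr7:77496832-77511621, minus strand) had peaks at -422552, -258054, -138852, -1099 and 9356 bp, with widths of 1420, 1123, 645, 1529 and 846 bp. The peak at -1099 bp (chr7:77505815-77507343) had a GC content of 67.1% and a CpG ratio of 1.02, the highest ratio of the 47 receptor peaks beyond 1 kb. It and the peak at 9356 bp were measured from the downstream of 2 annotated start sites, the others from a site 11 bp from the upstream one. The edge of the peak at -1099 bp came within 500 bp of the downstream site. The 4 other peaks were intergenic. The 3 beyond 100 kb all lay past B130024G19Rik, whose start site is 19797 bp from that of Nr2f2, so another coding start site was nearer to each of them in the GENCODE annotation. Between the start sites of the coding neighbours the gene has 1640 kb.

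Nr2f6 (chr8:73898026-73905859, minus strand), the third COUP-TF gene, had a single peak of 1580 bp with its midpoint 155 bp downstream of the TSS (chr8:73904907-73906486). Its GC content of 73.7% was the highest of the 73 receptor peaks. This gene stands in a crowded region, with 24.5 kb between the neighbouring coding start sites and 10 peaks of any gene within 100 kb of its own start site. Nr2f1 and Nr2f2 had 3 such peaks each.

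**Figure D2:**
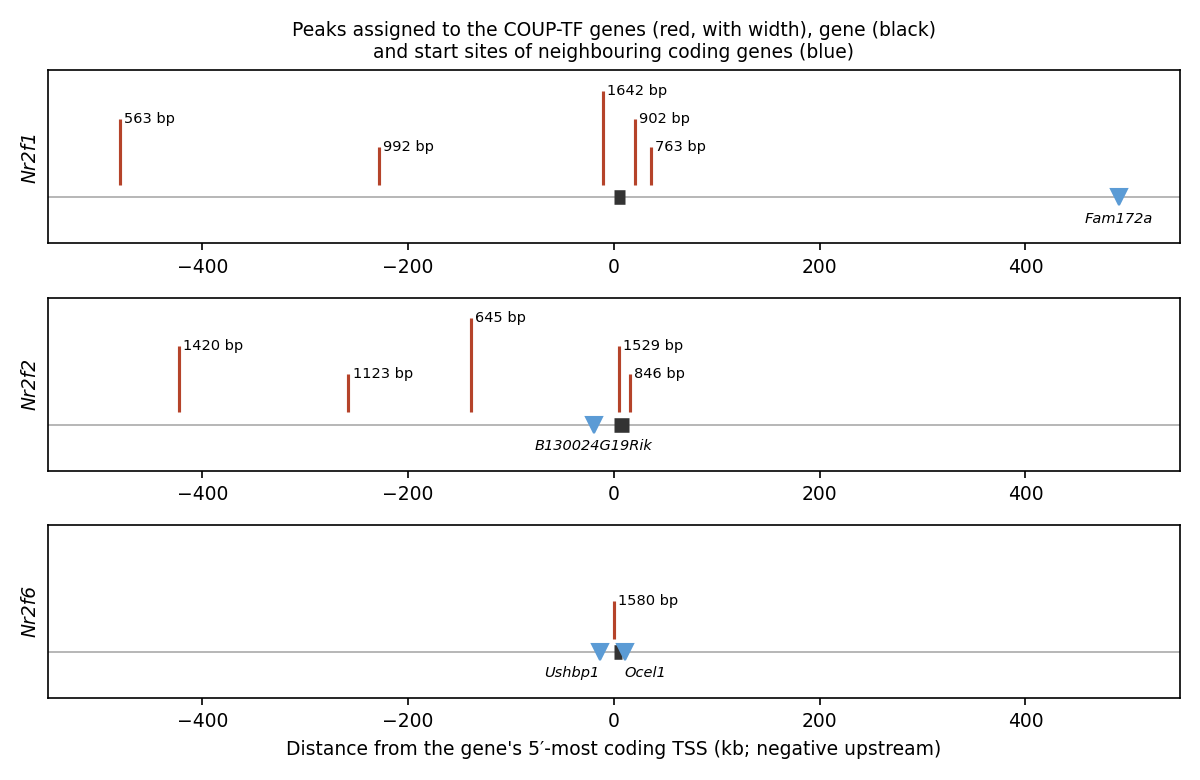
Peaks assigned to Nr2f1, Nr2f2 and Nr2f6 (red lines, labelled with the peak width; line height only separates the labels), gene bodies (black) and start sites of the neighbouring coding genes (blue triangles) along the distance in kb from the 5′-most annotated coding TSS. Nr2f1 and Nr2f2 had peaks as far as -480838 and -422552 bp from the assigned TSS, while the single Nr2f6 peak of 1580 bp covered its start site.

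The other orphan receptors related to COUP-TF were mixed. Nr2c1 and Nr2c2 encode the testicular receptors TR2 and TR4. Nr2c1 had 1 peak of 1293 bp at its start site, and Nr2c2 had 1 of 2216 bp at its start site with 2 more in introns of the upstream neighbour Fgd5, at -48164 bp (618 bp wide) and -24064 bp (1013 bp wide). Nr2e1, which encodes the neural stem cell regulator TLX, had no peak at any annotated start site although its promoter was CpG-rich with a ratio of 0.70. The start site of Ostm1 is 203 bp from that of Nr2e1, so the promoter window covers both. The 1 peak of Nr2e1, 679 bp wide, was 21021 bp downstream, in exon sequence at the end of the gene. It was 6261 bp from the nearest annotated start site of Nr2e1. Nr2e3, a photoreceptor regulator, had none, and the nearest peak was at -9385 bp from its TSS and was assigned to Gm7616. In all, the 7 genes of this class carried 16 peaks, of which 3 were promoter peaks, meaning peaks with the midpoint within 1 kb of the assigned TSS. Of all peaks, 44.9% were promoter peaks.

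Of the RXR genes, Rxra carried most of the peaks. It had 4, not all measured from the same start site. Those at -40215 and -97 bp shared a start site, and the peak at -97 bp was 2460 bp wide (chr2:27531395-27533854). Those at -9489 and 29812 bp were each measured from a different start site further downstream, inside the gene. The other 3 Rxra peaks were 1084 to 1112 bp wide, and 2 of them lay inside the gene. The 4 Rxra peaks were all wider than the median of all peaks, 1081 bp. Rxrg had 1 peak of 916 bp at its start site. Rxrb had none, although its promoter was CpG-rich with a ratio of 0.922 and its start site is 122 bp from that of Slc39a7. The nearest peak to Rxrb was at -4009 bp and was assigned to H2-Ke6, and none of the 11 peaks within 100 kb of its start site carried its symbol.

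Of the 11 receptors that bind DNA with RXR, 9 had a peak and 8 a promoter peak, against 62.5% and 50.0% of all coding genes. The 14 peaks included none beyond 100 kb, where 8.20% of all peaks lay. Those with 1 promoter peak and nothing else were Ppara (1916 bp wide, midpoint at -233 bp), Pparg (1829 bp, 565 bp), Nr1h2 (1565 bp, 470 bp) and Nr1h3 (1162 bp, -9 bp). Ppara and Pparg encode fatty acid receptors, and Nr1h2 and Nr1h3 the oxysterol receptors LXR beta and alpha.

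Thra and Thrb, the thyroid hormone receptor genes, each had a promoter peak of 1483 and 1514 bp. Thra had a further peak at 13087 bp inside the gene, which was 1286 bp from its nearest annotated start site. Thrb had peaks at -27820 bp and, in its own intron, at -14076 bp from a second start site. Vdr, the vitamin D receptor gene, had a promoter peak of 1324 bp and 1 of 770 bp at -6300 bp. Ppard had a promoter peak of 1197 bp and 1 of 1559 bp at -8680 bp, in a coding exon of its neighbour Def6.

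The xenobiotic and bile acid receptors of this class, which are known from liver and intestine, had few peaks. Nr1i2 (PXR) had 1 peak, 743 bp wide, in an intron 23145 bp downstream of its TSS. Nr1h4 (FXR) and Nr1i3 (CAR) had none, with the nearest peaks 62927 bp downstream (assigned to Gas2l3) and 8501 bp downstream (assigned to Tomm40l). The promoters of these 3 genes were CpG-poor, with ratios of 0.153, 0.269 and 0.186.

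Rora had the most peaks of any of the 38 genes. Rora and Rorb encode ROR receptors, which bind single half-sites as monomers. The 6 peaks of Rora included 2 at different start sites of this 734 kb gene, 1365 bp wide at -71 bp (chr9:68500841-68502205) and 2186 bp wide at 498 bp (chr9:69137054-69139239). The other 4 were intronic, 807 to 1162 bp wide, and lay between these start sites at -189898, -128741, -55207 and -30121 bp from the second one. Rorb had 1 peak of 1080 bp at -176 bp.

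The HNF4 genes, which encode regulators of liver and gut, had no promoter peak. Hnf4g had 3 intergenic peaks, all upstream, at -228384, -158411 and -40618 bp, with widths of 701, 1032 and 887 bp. Hnf4a had none with its symbol. A peak of 874 bp (chr2:163360393-163361266) lay inside Hnf4a, at -1926 bp from its nearest annotated start site, and was assigned to the antisense gene Hnf4aos.

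All 5 steroid receptor genes had a peak, against 62.5% of all coding genes. Nr3c1, the glucocorticoid receptor gene, had 1 peak, and at 3442 bp (chr18:39648315-39651756) it was the widest of the 73. The list places it 3136 bp upstream of the assigned TSS, but its midpoint was 293 bp from another annotated Nr3c1 start site. Pgr, the progesterone receptor gene, likewise had 1 wide peak, 2583 bp, at 1027 bp from the assigned TSS and 392 bp from an annotated one (chr9:8899570-8902152). Nr3c2, the mineralocorticoid receptor gene, had 1 peak of 1023 bp at -383 bp.

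The oestrogen receptor genes differed in their number of peaks. Esr1 had 2, of 1148 bp in a coding exon and of 399 bp in an intron, the latter being the narrowest of the 73, at 2346 and 2460 bp from 2 different start sites. Esr2 had 5. Its promoter peak was 823 bp wide with the midpoint at 42 bp, and the others were 1969 bp at -19314 bp, 451 bp at 46817 bp, 748 bp at 95300 bp and 910 bp at 104974 bp. The last pair lay within 1 kb of annotated start sites of Syne2, so their assignment to Esr2 rested on the gene models used.

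The oestrogen-related receptors are orphan regulators of mitochondrial and cardiac energy metabolism. Esrra had 1 peak of 2843 bp over its start site (chr19:6994503-6997345), the widest promoter peak of the 73. Esrrg had a promoter peak of 920 bp at -12 bp, at an internal start site of a 606 kb gene, and 3 narrow intronic peaks of 638 to 669 bp at -154902, -89684 and -23368 bp. The 5′-most Esrrg promoter was CpG-rich (0.663) and had no peak.

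The NR4A genes, which encode ligand-independent receptors induced early after stimulation, each had 3 peaks. Of these 9 peaks 5 were promoter peaks by the deposited distances (44.9% of all peaks were). Within 10 kb of the assigned TSS were 7 of the 9, while 41.4% of all peaks lay beyond 10 kb. All 9 were 1069 bp wide or wider. Their median width was 1526 bp, against 1081 bp for all peaks and 1326 bp for all promoter peaks. Nr4a1 had a peak of 2390 bp at 107 bp (chr15:101096190-101098579), with 1378 and 1278 bp at -12554 and -20372 bp. Nr4a2 had 1651 bp at 85 bp and 1415 bp at 238 bp, over different start sites, and 1939 bp at -1573 bp from the latter of these. Nr4a3 had 1586 bp at -179 bp, 1526 bp at -2116 bp, and 1069 bp in a coding exon. The Nr4a3 exon peak was listed at 577 bp from a different start site, and was 2709 bp from the nearest annotated one. It was therefore a promoter peak by the deposited distance only. Other classes also held genes with 3 peaks, namely Nr2c2, Thrb, Hnf4g and Nr5a2, and genes with more. The share of all coding genes with 3 or more was not counted, and their mean was 1.07 peaks.

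The remaining genes are regulators of gonad, early embryo and germ cells. Nr5a2 (LRH-1) had 3 peaks and none at its start sites, at 4365 bp in an intron (1550 bp wide) and at -337758 and -363269 bp upstream (550 and 1366 bp). Nr6a1 (GCNF) had 1 peak of 2256 bp at 48 bp (chr2:38780806-38783061). Its neighbour Nr5a1 (SF-1), which specifies adrenal and gonad, had none, and the nearest peak was 42914 bp downstream, assigned to Psmb7.

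**Figure D3:**
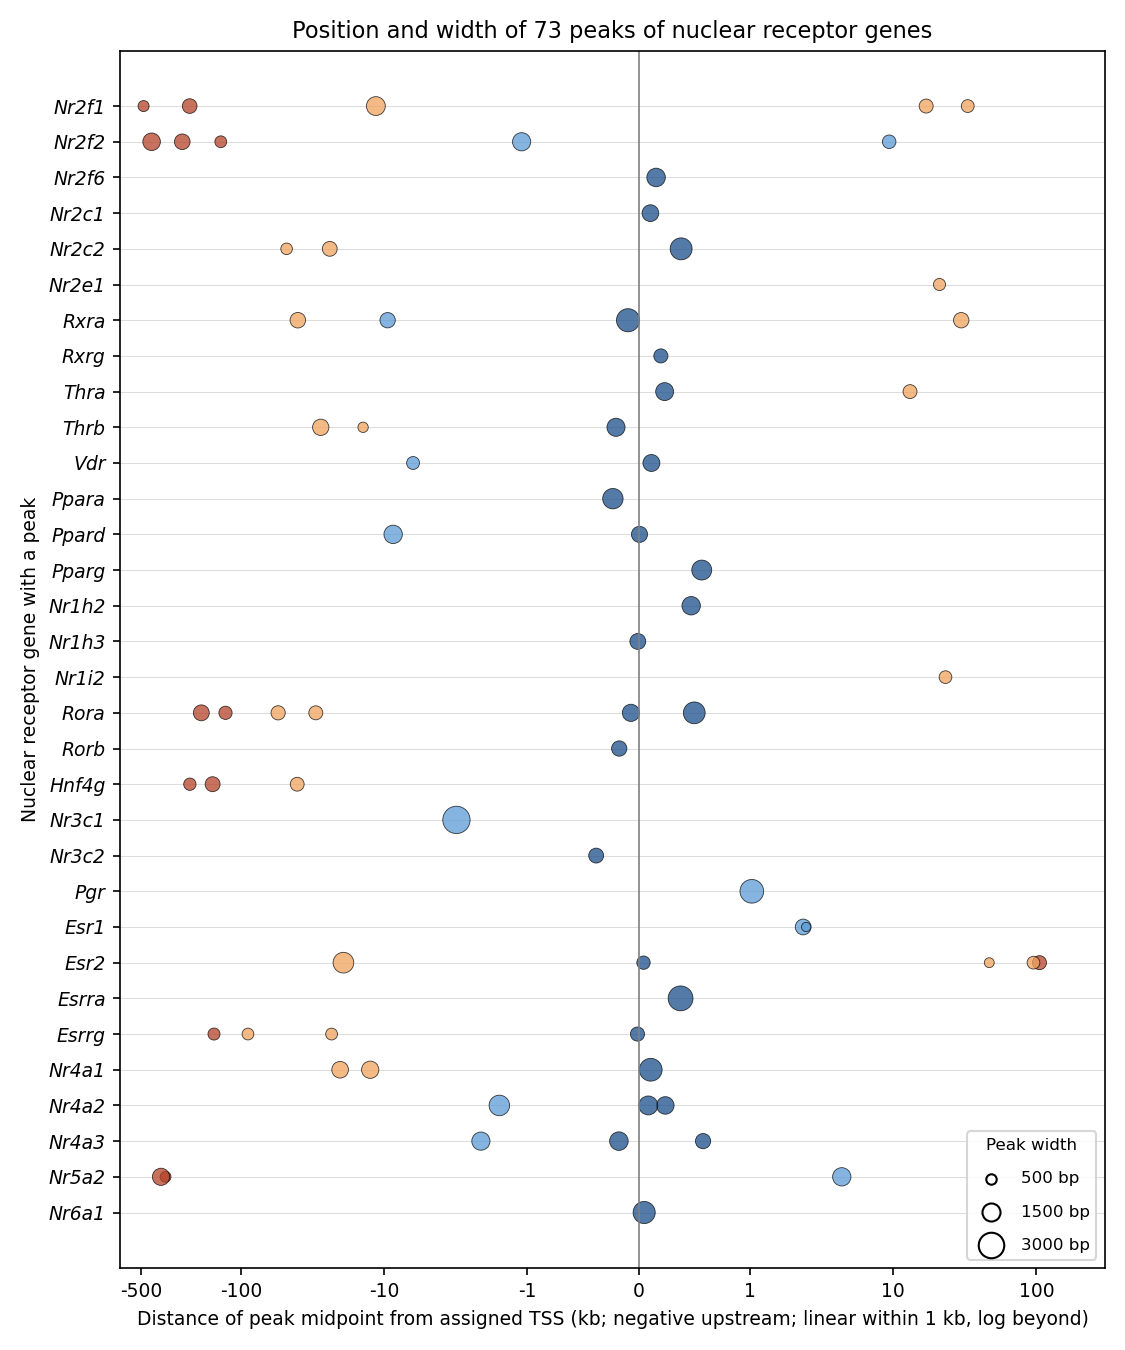
Signed distance in kb of each of the 73 peaks from the assigned TSS (horizontal axis, linear within 1 kb and logarithmic beyond) for the 32 nuclear receptor genes with a peak; point area is proportional to peak width and colours give the distance class. Of the 9 NR4A peaks 7 lay within 10 kb of the TSS, and 41.4% of all peaks lay beyond 10 kb. Nr2f1, Nr2f2, Rora, Hnf4g, Esrrg and Nr5a2 had peaks beyond 100 kb upstream of the assigned TSS. Those of Rora and Esrrg lay inside the gene, upstream of an internal start site only.

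Over the whole set, 32 of 38 genes (84.2%) had a peak, against a background of 62.5% of all coding genes. A promoter peak was found at 23 genes (60.5%), compared with 50.0% of all genes. Genes with a peak but no promoter peak numbered 9 (23.7%), compared with 12.4%, and were Nr2f1, Nr2f2, Nr2e1, Nr1i2, Hnf4g, Nr3c1, Pgr, Esr1 and Nr5a2. For Nr3c1 and Pgr this turned on which start site was used, as given above. With any annotated start site and 500 bp on either side, 26 genes (68.4%) had a peak there, against 56.3% of all genes, and the additions were Nr2f2, Nr3c1 and Pgr.

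Peaks were unevenly spread over the genes. While 6 genes had none, 15 had 1, 4 had 2, 7 had 3, 2 had 4, 3 had 5 and 1 had 6. The mean was 1.92 peaks per gene, against 1.07 over all coding genes. The 6 genes with 4 or more (15.8%) were Rora, Nr2f1, Nr2f2, Esr2, Rxra and Esrrg, against 4.78% of all coding genes, and they held 29 of the 73 peaks. With each peak assigned to the nearest coding GENCODE TSS there were again 6, with Esr2 at 3 peaks and Nr4a2 at 4. Nr2f2 again had 5 peaks, but not the same ones. Its 3 peaks beyond 100 kb were nearer to another coding start site, and peaks listed under other symbols took their place. Over the 38 genes Spearman's rho between the number of peaks and the distance between the neighbouring coding start sites was 0.50, and with gene length it was 0.32. Both are descriptions across genes, which are not independent replicates, and since each peak is assigned to a near start site, the space around a gene enters its count by construction.

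The median distance of receptor peaks from the assigned TSS was 9356 bp (quartiles 238 and 40618 bp), against 4154 bp for all peaks. With each gene counted once by its own median, it was 3171 bp over the 32 receptor genes and 2585 bp over all 15351 genes in the list. Of the 73, 26 (35.6%) lay within 1 kb, compared with 44.9% of all peaks. Beyond 10 kb were 35 (47.9%, all peaks 41.4%), and beyond 100 kb 13 (17.8%, all peaks 8.20%), the latter from 7 genes. These were Nr2f1, Nr2f2, Rora, Hnf4g, Esr2, Esrrg and Nr5a2.

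Of the 35 peaks beyond 10 kb, 26 (74.3%) were upstream by the deposited distances, against 43.3% of all such peaks. This difference depended on the start site chosen. In Rora, Esrrg and Thrb, 8 of the 26 lay inside the gene and were upstream of an internal start site only. Measured from the 5′-most annotated TSS, 18 of 41 peaks beyond 10 kb were upstream (43.9%), against 37.5% of all peaks.

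By the GENCODE annotation, 29 of the 73 midpoints were within 1 kb of a coding TSS, 20 in introns, 19 intergenic, 3 in coding exons and 2 in other exons. Of the 47 peaks beyond 1 kb of the assigned TSS, 21 lay inside the gene they were assigned to, 7 inside another gene only and 19 in no gene. The nearest coding TSS was of the assigned gene for 68 of the 73.

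The median width of receptor peaks was 1123 bp (quartiles 846 and 1550 bp, range 399 to 3442 bp), against 1081 bp (835 and 1433 bp, range 327 to 6979 bp) for all peaks. Promoter peaks had a median of 1498 bp (1171 and 1894 bp), against 1326 bp (1072 and 1691 bp), and peaks beyond 1 kb 930 bp (722 and 1322 bp), against 911 bp (735 and 1146 bp). In each case the quartile ranges overlapped.

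The 8 genes with a peak of 2 kb or more (21.1%, all coding genes 8.36%) were Nr3c1, Esrra, Pgr, Rxra, Nr4a1, Nr6a1, Nr2c2 and Rora. All 8 peaks had their midpoint within 1 kb of an annotated start site of their gene. Just below this width were Esr2 at -19314 bp (1969 bp), Nr4a2 at -1573 bp (1939 bp) and Ppara (1916 bp).

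**Figure D4:**
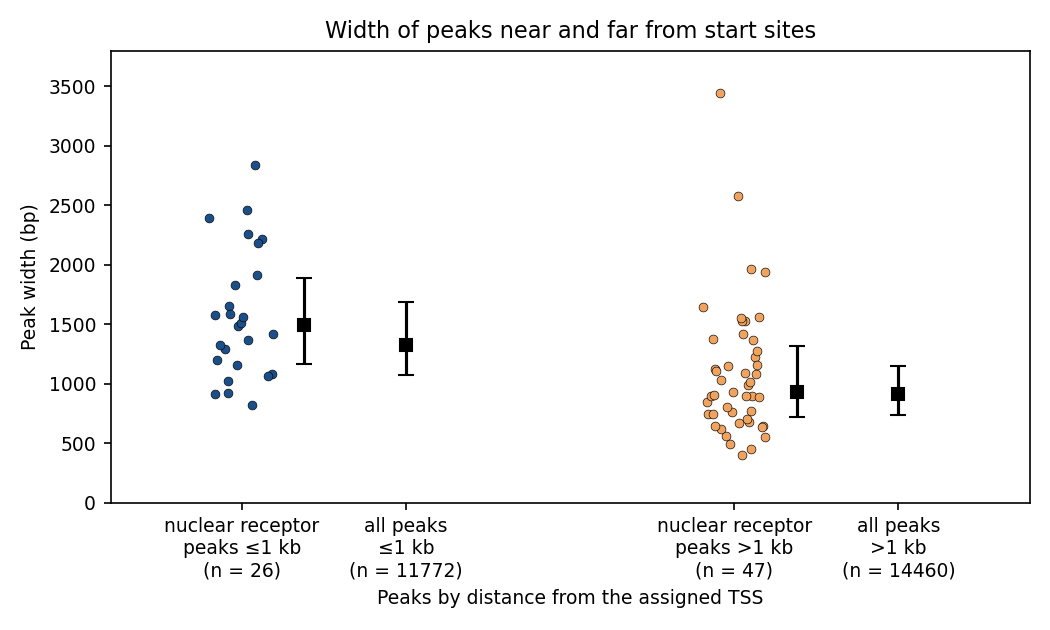
Width in bp of the nuclear receptor peaks (points), split at 1 kb from the assigned TSS; black squares and bars give the median and quartiles of these peaks and of all peaks in the same distance class. Promoter peaks of the receptors had a median of 1498 bp against 1326 bp for all, and peaks beyond 1 kb 930 bp against 911 bp.

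Base composition followed the distance class. The median GC content was 60.8% in receptor peaks within 1 kb and 52.7% beyond, against 58.6% and 51.4% for all peaks, and the median CpG ratio was 0.678 and 0.280, against 0.685 and 0.242. Promoters, taken as a window reaching 500 bp each way from the 5′-most coding TSS, were called CpG-rich where the CpG ratio reached 0.6 and the GC content 50%. By this measure 21 of 38 receptor promoters (55.3%) were CpG-rich, compared with 44.7% of all.

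Of the 21 CpG-rich receptor promoters 16 (76.2%) overlapped a peak, while 89.4% of all CpG-rich promoters did. The 5 without were Nr2f1, Nr2e1, Rxrb, Nr3c2 and Esrrg. Nr3c2 and Esrrg had a peak at another start site, which leaves Nr2f1, Nr2e1 and Rxrb without one at any. Of the 17 CpG-poor promoters 6 (35.3%) overlapped a peak, against 24.9% of all CpG-poor promoters, and these were Rxra, Rxrg, Nr1h3, Pgr, Esr2 and Nr6a1. Rxra, Esr2 and Pgr came close to the CpG-rich threshold, with ratios of 0.583, 0.572 and 0.555.

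**Figure D5:**
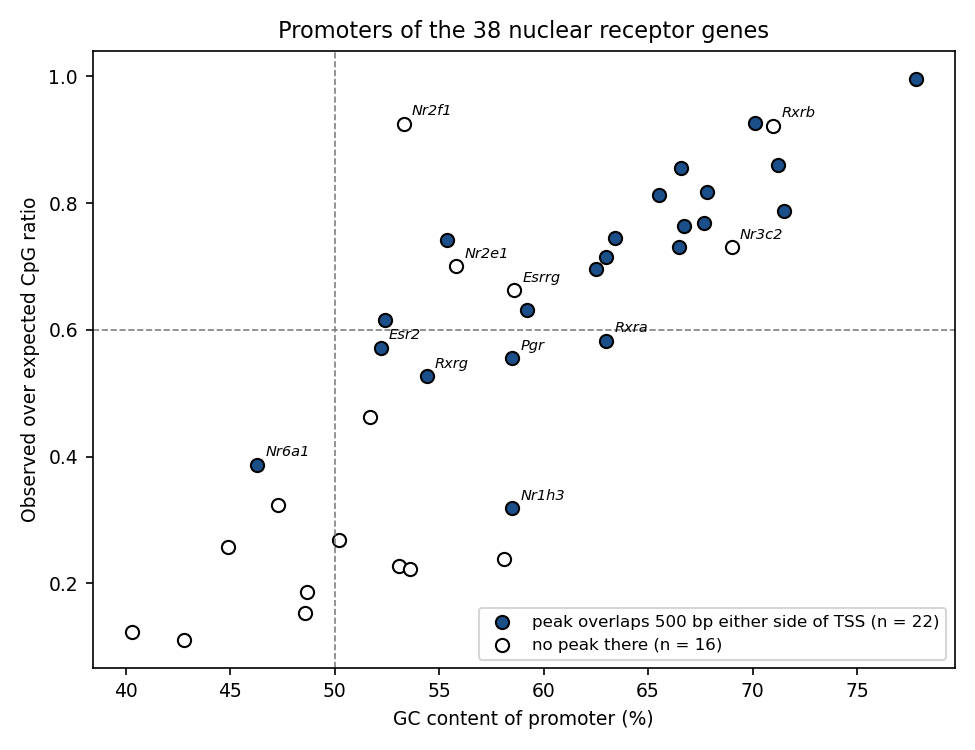
GC content in percent against the observed over expected CpG ratio of the 38 receptor promoters (a window reaching 500 bp each way from the 5′-most coding TSS); filled points overlap a peak, dashed lines are the thresholds of 50% and 0.6, and promoters whose peak status differs from that of most promoters in their class are named. Nr2f1, Nr2e1, Rxrb, Nr3c2 and Esrrg were CpG-rich without a peak there, and 6 CpG-poor promoters had one.

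To describe what the peak centres hold, the 300 bp around each midpoint were searched on both strands for motifs of nuclear receptors and of cardiac factors. A match is a string of letters in the window and not evidence of binding. The half-site AGGTCA was found in 7 of 73 receptor peaks (9.59%), against 15.1% of all peaks. In whole peaks the shares were 47.9% and 48.0%. The 7 sites are shown because receptors of this family, COUP-TF among them, recognise this half-site. Each is read from the plus strand of mm9, and capitals mark AGGTCA or its reverse complement.
Nr2f2, chr7:77769549-77769594, in the peak at -258054 bp: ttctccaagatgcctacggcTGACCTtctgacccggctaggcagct
Nr2f2, chr7:77934127-77934172, in the peak at -422552 bp: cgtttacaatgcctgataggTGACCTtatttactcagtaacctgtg
Nr2c2, chr6:91993351-91993396, in the peak at -48164 bp: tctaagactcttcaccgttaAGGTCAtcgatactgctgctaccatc
Nr2e1, chr10:42282424-42282453, in the peak at 21021 bp: aacgaggttgccTGACCTacggtatgagaa
Thrb, chr14:18493270-18493315, in the peak at -205 bp: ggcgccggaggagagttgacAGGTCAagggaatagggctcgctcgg
Ppara, chr15:85565630-85565675, in the peak at -233 bp: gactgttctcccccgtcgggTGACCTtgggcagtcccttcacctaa
Esrra, chr19:6995787-6995832, in the peak at 375 bp: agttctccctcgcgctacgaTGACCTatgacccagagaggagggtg

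No receptor peak held an exact direct repeat of the half-site with 0 to 5 bases between (0.114% of all peaks did), and hence none the repeat spaced by 1 base that COUP-TF, RXR and HNF4 dimers bind (0.0419%). With 1 mismatch allowed in 1 of the half-sites, 2 of 73 receptor peaks (2.74%) and 1.63% of all peaks held such a repeat. Both extend half-sites shown above, with capitals marking the pair on the plus strand. In the Esrra promoter peak 1 base separates the half-sites, and in the distal Nr2f2 peak 2 bases do.
Esrra, chr19:6995787-6995839: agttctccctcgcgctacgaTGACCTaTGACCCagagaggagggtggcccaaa
Nr2f2, chr7:77769549-77769602: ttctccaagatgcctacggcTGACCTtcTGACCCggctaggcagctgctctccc

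The other receptor motifs were rare everywhere. The extended half-site TCAAGGTCA, which contains AGGTCA and which monomers of the oestrogen-related and NR5A type bind, was in no receptor peak and in 0.290% of all peaks, and the glucocorticoid and oestrogen response palindromes were in none of the receptor peaks and each in 0.00381% of all.

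Motifs of cardiac and homeodomain factors were each found in few receptor peaks. The GATA motif AGATAAG was in 3 receptor peaks (4.11%, all peaks 4.22%), the NK motif TCAAGTG in 1, of Rxra (1.37%, all 2.56%), and the T-box motif AGGTGTGA in 2, of Rora and Hnf4g (2.74%, all 1.16%). The homeodomain core TAATTG was in 6 (8.22%, all 4.28%), from Nr2f1, Nr2f2, Nr1h2, Nr1i2, Esr2 and Esrrg, those of Nr1h2 and Esrrg being promoter peaks. The GATA share was near that of all peaks. Its sites are shown with their positions, and all 3 lay far upstream of genes without a promoter peak, Hnf4g and Nr5a2. That trait was noted after the sites were seen, and its rate over all peaks was not counted. Capitals mark AGATAAG or its reverse complement.
Hnf4g, chr3:3279484-3279530, in the peak at -228384 bp: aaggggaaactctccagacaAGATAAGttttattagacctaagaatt
Hnf4g, chr3:3467408-3467454, in the peak at -40618 bp: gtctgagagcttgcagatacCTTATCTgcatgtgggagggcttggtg
Nr5a2, chr1:139194826-139194872, in the peak at -337758 bp: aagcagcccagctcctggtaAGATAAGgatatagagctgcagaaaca

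The homeodomain sites are shown because Isl1, the factor the study is about, is a LIM-homeodomain protein. Capitals mark TAATTG or its reverse complement, and the site of Nr2f1 is in the 300 bases given above.
Nr2f2, chr7:77934252-77934297, in the peak at -422552 bp: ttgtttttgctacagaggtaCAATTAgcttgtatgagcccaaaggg
Nr1h2, chr7:51808728-51808773, in the peak at 470 bp: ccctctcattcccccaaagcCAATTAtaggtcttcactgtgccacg
Nr1i2, chr16:38271887-38271932, in the peak at 23145 bp: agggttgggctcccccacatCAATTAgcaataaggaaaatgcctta
Esr2, chr12:77297617-77297662, in the peak at -19314 bp: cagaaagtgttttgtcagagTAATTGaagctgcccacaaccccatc
Esrrg, chr1:189821791-189821820, in the peak at -12 bp: gaacgcgtgtgtTAATTGcaccgggctctg
The peak of Nr2f2 at -422552 bp therefore held both a half-site and a homeodomain core in its central 300 bp. This pair was noted after the sites were seen, and the share of all peaks that hold both was not counted.

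The coregulators that nuclear receptors recruit were compared as background. Of 18 coregulator genes, such as the coactivators of the Ncoa family and the corepressor Ncor1, 17 (94.4%) had a peak and 16 (88.9%) a promoter peak. The shares of all coding genes were 62.5% and 50.0%. The coregulators had 2.11 peaks per gene, against 1.07 over all coding genes. Hdac3 had none. Of 11 further nuclear receptor genes outside the list, 8 (72.7%) had a peak and 6 (54.5%) a promoter peak. They had 17 peaks in all, or 1.55 per gene. Among these the retinoic acid receptor gene Rarg had a peak of 5021 bp, wider than any of the 73, and Esrrb had 4 peaks. Nr0b1, Nr0b2 and Nr1h5 had none.

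Set beside other transcription factor families, the receptors had 1.92 peaks per gene, 44 forkhead genes 2.20 and 19 SOX genes 2.37. The share of genes with a peak was 84.2%, 77.3% and 89.5%, and the share with 4 or more was 15.8%, 20.5% and 21.1%. No test was made between these families. Among cell type markers, 7 of 8 cardiac progenitor genes had a peak (Isl1 8, Tbx20 6 and Hand2 0), as had 2 of 3 pluripotency, 4 of 4 blood and endothelial, 1 of 2 liver and 2 of 2 neural genes. The mean was 4.00 peaks per gene for the cardiac genes, 1.33 for pluripotency, 2.25 for blood and endothelial, 0.5 for liver and 1.5 for neural genes. The cardiac genes thus had the highest mean of these small lists, and markers of the other cell types also had peaks. The part of other cell types in the receptor peaks was not tested.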

How the data were processed

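ATAC-seq was performed on 2 replicates of day 5 CPCs. Per the study's methods, the authors mapped reads to mm9 with bowtie2, filtered pairs with samtools, removed duplicates with Picard 1.136, called peaks per replicate with MACS14 at a fixed shift, handled regions of the ENCODE blacklist, and kept with bedtools 2.15 peaks overlapping by at least 1 bp between replicates. A correction for the Tn5 cut position is not given in the sources used here. The authors deposited 1 list of 26429 lines with positions and signed distances in bp, an accession and a gene symbol, and neither counts nor scores. The annotation step that assigns the nearest TSS is described for the ChIP-Seq peaks. The list may lack some lines.

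Distinct intervals (26232) were matched to the 38 symbols, all found in GENCODE vM1 on NCBIM37, which is the mm9 assembly. For 9 genes distances were measured from more than 1 TSS, and 40 of the 73 deposited distances implied a TSS within 10 bp of an annotated one of the gene. Coding genes came from a RefSeq table (GRCm38.p6, names only). Every member is named. Genes with 4 or more peaks, with a peak of 2 kb or more or without a peak, and the COUP-TF genes, are described in detail. The members and lists were chosen with earlier results of these data known, and the printed half-site, GATA and homeodomain sites after their values were seen. Python 3.11.15, pandas 2.3.3 and pyfaidx 0.9.0.4 were used, and the scripts were tested on simulated data. No test over samples was possible with 1 pooled list.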

Additional observations from a re-analysis of the deposited data

How the results depend on the processing

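Of 31 alternatives for 9 results, 23 stayed within the set limits, which were 1.5 times a count and the 95% confidence interval of a median or share, and 8 moved. These intervals treat the 73 peaks as independent, although 29 of them belonged to 6 genes, and they hold no replicate error. Staying inside an interval is therefore a weak criterion. The interval of the median distance was wide, 1099 to 21021 bp, so the 3171 bp found with each gene counted once, against 9356 bp, fell inside it. Keeping peaks wider than the median of all peaks can only lower the counts and raise the median width. It gave 40 receptor peaks, 1 gene with 4 or more (Rxra) and a median width of 1528 bp. The median distance, which this filter does not fix, was 796 bp. Counting every peak within 100 kb of the GENCODE TSS, whatever its symbol, gave 175 peaks and 20 genes with 4 or more, since it admits peaks of neighbouring genes. Searching whole peaks gave the half-site in 47.9% of receptor peaks. The upstream share measured from the 5′-most GENCODE TSS, an alternative chosen after seeing the data, was 43.9%. The number of genes with a peak ranged from 25 to 37 over its alternatives, and that of genes with a promoter peak from 22 to 26.

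Leaving out a replicate was not run, since the list has no column for either replicate. No paired analysis was possible because only 1 group was sampled. Depth was unknown, and no limit of detection was estimated for genes without a peak.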

Other observations

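Some peaks near receptor genes carried other symbols. In the gene body of Ppard 1 of 2 peaks was assigned to Mir5098, in that of Esrrg 1 of 5 to 9330162B11Rik, and in that of Hnf4a its single peak to Hnf4aos. Assigned to the nearest coding GENCODE TSS instead, Hnf4a had 1 peak, Nr2e3 had 2, Ppara had 3 and Esr2 had 3.

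Several receptor genes are neighbours on the chromosome. The start sites of Nr6a1 and Nr5a1 are 213146 bp apart, and Nr6a1 had 1 peak and Nr5a1 none. Thra and Nr1d1, 33522 bp apart, had 2 peaks each. Thrb lies between Rarb and Nr1d2, 842093 and 578167 bp away, and these had 3, 2 and 1 peaks.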
